A study of Homo sapiens with 12 samples.

Results

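Some mRNAs are read by ribosomes only after they have passed one or more short open reading frames in the 5′ leader, called upstream open reading frames (uORFs). This report follows 10 such stress response mRNAs and their near targets through the ribosomal fractions of human mammary epithelial cells with and without CBFB: ATF4, ATF5, DDIT3, PPP1R15A, PPP1R15B, IFRD1, TRIB3, CHAC1, ASNS and SESN2. They were chosen by name as mRNAs that carry uORFs and respond to phosphorylation of the initiation factor eIF2, or as targets of ATF4, and the rule itself uses no measured value. They are 10 of the 56632 genes in the tables, and 10 of 10 passed the low-count filter that kept 16275 genes for testing.

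When one of the kinases EIF2AK1, EIF2AK2, EIF2AK3 or EIF2AK4 phosphorylates eIF2, most initiation slows, while mRNAs such as ATF4 are translated better, because scanning ribosomes then pass an inhibitory uORF before they can restart. ATF4 and DDIT3 (CHOP) are transcription factors that switch on amino acid synthesis, redox and cell death genes, and PPP1R15A returns eIF2 to its unphosphorylated form. An mRNA held back at its uORFs carries few ribosomes and is known to sediment in the light part of a polysome gradient.

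The cells were MCF10A, a non-tumorigenic human breast epithelial line, either WT or CBFB_KO. CBFB is the partner of RUNX1 in transcription and was studied here for a part in translation. The knockout line was made by CRISPR and picked as a single clone, so line and genotype cannot be told apart. All cells, WT included, were grown with serum, insulin, EGF, hydrocortisone and cholera toxin and were treated with cycloheximide before lysis, which holds ribosomes on the mRNA. The labels name no stress agent for any group. A sucrose gradient gave 3 kinds of fraction, free RNA (free), single ribosomes (mono) and the polyribosomes pooled (poly), whose RNA was sequenced in 2 replicates per group, giving 12 libraries in 6 groups, and nothing in the labels says that the replicates were separate cultures, so p-values measure the spread between these samples, which may be technical.

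Library depth, as total expected counts, ran from 41050325 to 63886726. The libraries labelled CBFB_KO free stood apart: transcripts encoded by the mitochondrial genome made up 71.6% and 87.2% of their counts, against 11.1% and 20.8% in WT free and 1.26% to 8.08% in the mono and poly libraries, which left 13568143 and 5247878 other counts in them. The CBFB_KO poly libraries were nearly identical, with a mean chi-square of 2.21 per gene where the other replicate pairs gave 118.5 to 901.5. CBFB mRNA itself was at 5.37 and 12.6 CPM (counts scaled to a common library size with TMM factors) in WT free and 11.3 and 14.1 in CBFB_KO free, and its log2 change was 0.49 ± 0.43 (SE) in the free, -0.71 ± 0.44 in the mono and -0.72 ± 0.43 in the poly fraction, none of which passed the test (edgeR quasi-likelihood, adjusted p = 0.373, 1.0 and 1.0). A small CRISPR lesion need not lower the mRNA, so this level does not check the label. All 8 basal epithelial markers were above 0 in the 12 libraries, but at unlike levels. KRT5 was between 83.9 and 2101 TPM (a share of the library per transcript length) and KRT17 between 5.58 and 2055 TPM. The medians of the others were 7.99 (KRT14), 5.745 (LAMB3), 5.49 (CDH1), 2.015 (TP63), 1.465 (EPCAM) and 0.625 TPM (VIM). Their lowest values came down to 0.09 TPM for KRT14 and 0.06 TPM for VIM. The summed level of the 8 ran from 100.7 to 4326 TPM. Of the 3 luminal markers PGR was at 0 in 12 of 12, while ESR1 and FOXA1 were above 0 in 12 of 12 and reached 0.59 and 3.95 TPM. Of the 2 immune markers PTPRC was at 0 in 12 of 12 and CD68 reached 6.37 TPM, of the 2 fibroblast markers COL1A1 reached 2.01 and PDGFRB 0.18 TPM, and the endothelial CDH5 was at 0 in 12 of 12.

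The leaders were read from the GENCODE release 29 transcript (GRCh38) whose length was nearest to the one RSEM gave each gene. Of the 10 mRNAs, 9 had an ATG upstream of the main start in that transcript, and ASNS, with a leader of 73 bases, had none (2 of its 7 coding transcripts have one). ATF4 carried 3 uORFs in a leader of 280 bases: 1 of 1 codon, 1 of 3 codons and 1 of 59 codons that runs past the main ATG in another frame. ATF5 had the same order in 377 bases, a uORF of 3 codons and then one of 59 codons over the main start. DDIT3 had a uORF of 34 codons, with a second ATG in its frame that gives 31 codons, and one of 73 codons over the main start. In CHAC1 a frame of 202 codons crossed the main start, and a second upstream ATG was in frame with it and would add to the protein's N-terminus. The other uORFs ended before the main start, with 22 and 26 codons in PPP1R15A, 8 and 51 in PPP1R15B, 52 in IFRD1, 8, 77 and 14 in TRIB3 and 19 in SESN2. Among 12918 tested genes with a matched coding transcript, 49.3% had an upstream ATG and 18.9% a uORF over the main start, and the median leader was 158 bases. Codons are given without the stop.

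**Figure D1:**
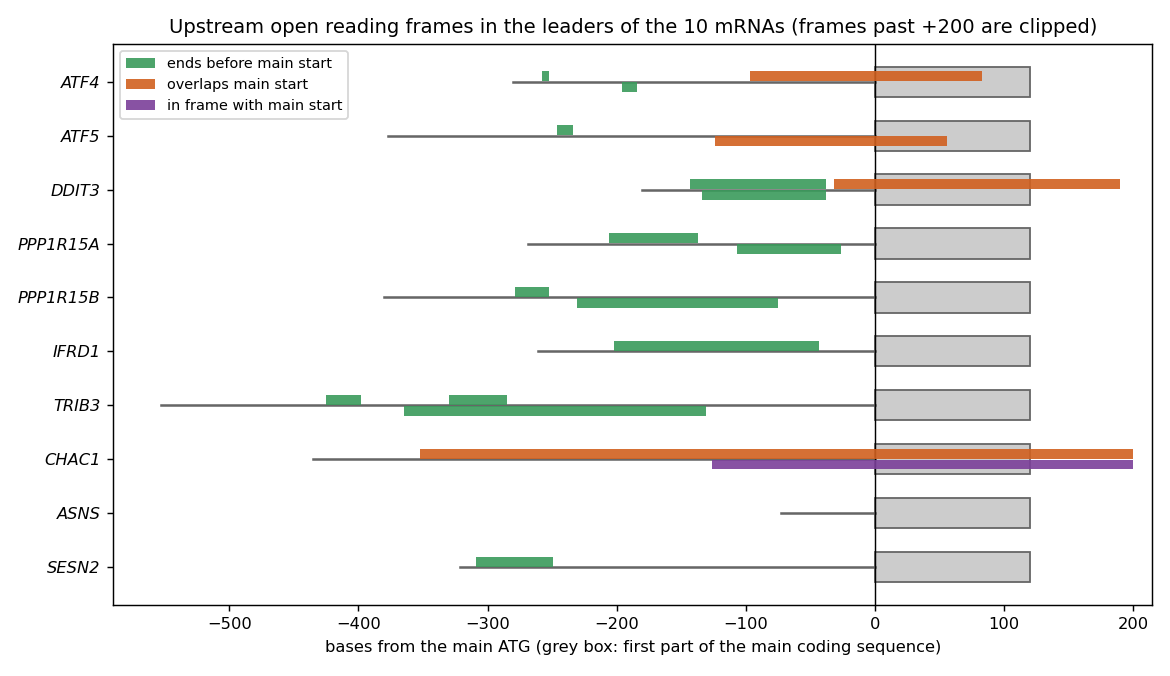
Leaders of the 10 mRNAs drawn to scale, with bases from the main ATG on the x axis and the first part of the main coding sequence as a grey box. Green bars are uORFs that end before the main start, orange bars cross it in another frame, and the purple bar is in frame with it; ATF4, ATF5, DDIT3 and CHAC1 have a crossing frame and ASNS has none.

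The start sites below, 22 bases each from GENCODE release 29 on GRCh38 with the ATG in capitals, show the arrangement that ATF4 and ATF5 share, a short early uORF followed by a long one over the main start, and 1 uORF each of DDIT3, PPP1R15A, PPP1R15B and IFRD1. In ATF4 uORF 2 and uORF 3 and in both ATF5 uORFs a purine stands 3 bases before the ATG and a G directly after it, which is the favoured initiation context, while the main starts of ATF4 and ATF5 have the purine without that G.
ATF4 uORF 2: acggccaccATGgcgtattagg
ATF4 uORF 3: gcttaagccATGgcgcttctca
ATF4 main start: caccgcaacATGaccgaaatga
ATF5 uORF 1: gccccggccATGgctctgtagc
ATF5 uORF 2: gctgcagccATGgagtcttcca
ATF5 main start: gctacagccATGtcactcctgg
DDIT3 uORF 1: gagcgtatcATGttaaagatga
PPP1R15A uORF 2: gagggtgagATGaacgcgctgg
PPP1R15B uORF 2: cccgccaggATGgaagtcgcat
IFRD1 uORF 1: gagagaaacATGtatcgttttc

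These sites lie in exons of the 5′ UTR or at the main start, on the plus strand unless stated. The ATF4 sites are at chr22:39520639-39520660, chr22:39520738-39521361 (over an intron) and chr22:39521437-39521458. Those of ATF5 are at chr19:49929265-49929286, chr19:49929387-49930739 (over an intron) and chr19:49930842-49930863. The DDIT3 site is at chr12:57520468-57520489 on the minus strand, that of PPP1R15A at chr19:48872545-48872566, that of PPP1R15B at chr1:204411630-204411651 on the minus strand and that of IFRD1 at chr7:112450478-112450499.

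The first question was how the 10 mRNAs are spread over the fractions of WT cells. Per length, ATF4 was the most abundant of them, at 3695 and 2419 TPM in the WT free libraries (rank 57 and 75 of all genes) and 650.8 and 682.5 TPM in the WT poly libraries. TRIB3, a pseudokinase and ATF4 target, followed at 196.3 and 153.8 TPM in WT poly. ATF5, ASNS, CHAC1, PPP1R15A, SESN2 and DDIT3 came next with values between 20.4 and 46.7 TPM. Neighbours in that order overlapped, except that both DDIT3 values (20.4 and 23.7 TPM) lay below those of SESN2 (31.2 and 25.9 TPM). PPP1R15B (2.22 and 3.49 TPM) and IFRD1 (1.49 and 2.07 TPM) were lowest and did not overlap each other.

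ATF4 took up a larger share of the free and mono libraries than of the poly libraries. Its level was 5324 and 3175 CPM in WT free, 2654 and 2352 CPM in WT mono and 563.3 and 519.7 CPM in WT poly. The 3 fractions did not overlap, and poly was the lowest. Its poly level was 7.85-fold lower than free (log2 -2.97 ± 0.66, SE, n = 2 libraries per group; edgeR quasi-likelihood, adjusted p = 0.0102) and 4.62-fold lower than mono (-2.21 ± 0.64; adjusted p = 0.0313). Each value is relative to the other RNA of its library. It is scaled with TMM factors, which ran from 0.241 (CBFB_KO free replicate 2) to 1.80 (WT poly replicate 2). Less of an mRNA thus cannot be told apart from more of the other RNA in a fraction. Fewer cells that hold it cannot be told apart from less of it per cell.

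DDIT3 stood out in the mono fraction. It was at 23.8 and 11.5 CPM in WT free, 37.9 and 44.2 CPM in WT mono and 10.2 and 10.4 CPM in WT poly. Both mono libraries lay above all others, and poly was 3.97-fold lower than mono (log2 -1.99 ± 0.54, adjusted p = 0.0248). Poly against free gave -0.77 ± 0.53 (adjusted p = 0.309). Over all genes the WT poly to mono ratio moved with transcript length. Its median log2 was -1.02 up to 1500 bases, 0.2 up to 3000 and 0.86 above. DDIT3 (904 bases) and ATF4 (1421 bases) are in the shortest class, and the part of length in their values was not tested on its own.

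ASNS, the asparagine synthetase, had the opposite distribution. It was at 8.98 and 12.8 CPM in WT free, 9.25 and 15.3 CPM in WT mono and 30.0 and 43.6 CPM in WT poly. Both poly libraries were above the other 4. Poly was 3.38-fold higher than free (log2 1.76 ± 0.48, adjusted p = 0.0249) and 3.0-fold higher than mono (1.58 ± 0.48, adjusted p = 0.0373). The transcript length RSEM gave ASNS was 1433 and 1800 bases in WT free, 1679 and 1535 in WT mono and 1892 and 1865 in WT poly. Its isoforms were thus not estimated alike. The matched transcript (1638 bases, 1434 of them coding) was shorter than the length given in both WT poly libraries. Its leader, which had no uORF, need not hold for each fraction.

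In WT poly against free, 2 of the 10 passed the test, ASNS higher and ATF4 lower, where 14.0% of all tested genes were called higher and 7.99% lower. In WT poly against mono 3 passed, ASNS higher and ATF4 and DDIT3 lower, against 11.0% and 9.68% of all genes, and in WT mono against free 0 passed, against 6.98% of all genes (edgeR, with DDIT3 and PPP1R15B at an unadjusted p under 0.05, and 0 with DESeq2). The median log2 poly to free ratio of the 10 was -0.84, and that of all tested genes 0.08. Without either WT replicate, 0 of the 10 passed in the first 2 of these comparisons. Calls over all genes fell as well, to 9.14% without replicate 1 and 16.5% without replicate 2 for poly against free, and to 6.53% and 0.0% for poly against mono. ATF4 poly against free was then -2.59 (without replicate 1, adjusted p = 0.16) and -3.17 (without replicate 2, adjusted p = 0.0832), and poly against mono -2.17 (adjusted p = 0.208) and -2.08 (adjusted p = 0.248). ASNS was 1.79 (adjusted p = 0.142) and 1.81 (adjusted p = 0.106) against free. Against mono, ASNS was 1.52 (adjusted p = 0.184) and 1.86 (adjusted p = 0.149), and DDIT3 -2.07 (adjusted p = 0.136) and -1.73 (adjusted p = 0.204). Scaling by library size alone put the median of all genes at 0.61 against free and 0.81 against mono, and ended the calls of ATF4 (-2.42, adjusted p = 0.0563, and -1.34, adjusted p = 0.25) and DDIT3 (-1.11, adjusted p = 0.303) but not those of ASNS.

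The other 7 did not pass in WT, and their poly to free log2 ratios were between -1.42 and 1.0. PPP1R15A was at 88.7 and 142.5 CPM in WT free, 145.3 and 57.0 CPM in WT mono and 45.7 and 40.6 CPM in WT poly. Both poly libraries were below the other 4, with a log2 poly to free ratio of -1.42 ± 0.56 (adjusted p = 0.0892). ATF5 was at 104.3 and 167.3 CPM in WT free, 121.1 and 56.5 CPM in WT mono and 61.1 and 44.8 CPM in WT poly, a log2 ratio of -1.36 ± 0.58 (adjusted p = 0.11). The ATF5 mono and poly libraries overlapped. PPP1R15B, the constitutive counterpart of PPP1R15A in dephosphorylating eIF2, was the only other member with a positive value, 1.0 ± 0.51 (adjusted p = 0.175). It was at 3.75 and 5.59 CPM in WT free and 7.84 and 10.9 CPM in WT poly. By libraries, 7 of the 10 had both poly values below both free values and 2 had both above, where 26.7% and 35.7% of all tested genes did so.

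**Figure D2:**
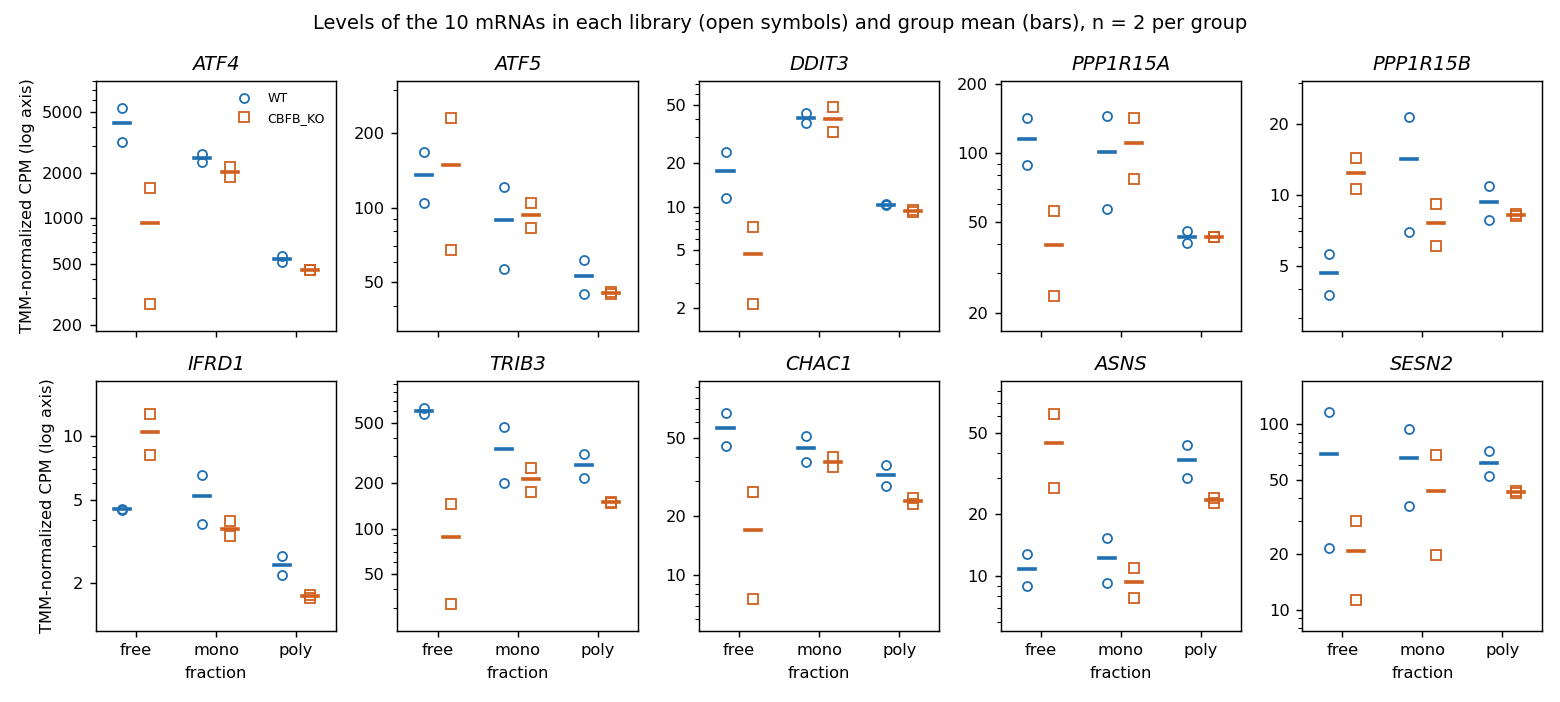
TMM-normalized CPM of the 10 mRNAs (log y axis, own range per panel) in the free, mono and poly fractions, with WT libraries as blue circles, CBFB_KO libraries as orange squares and horizontal bars for the mean of 2 libraries. ATF4 and DDIT3 are lowest in poly in WT cells and ASNS highest, and the CBFB_KO free libraries spread widely, as for ATF4 at 1590 and 274.8 CPM.

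The next question was whether loss of CBFB changed the levels within a fraction. In the poly fraction the 10 mRNAs did not differ between genotypes past the threshold. ATF4 was at 460.1 and 455.8 CPM in CBFB_KO poly, 0.85 of WT on the linear scale (log2 -0.24 ± 0.61). TRIB3 had the largest difference, 148.4 and 149.5 CPM against 312.8 and 216.3 CPM in WT (log2 -0.83 ± 0.62, adjusted p = 1.0), and PPP1R15A the smallest, 42.8 and 43.1 CPM against 45.7 and 40.6 CPM (-0.01 ± 0.55). All 10 values were below 0, with a median of -0.34 against -0.03 for all tested genes, and in 7 of them (ATF4, DDIT3, IFRD1, TRIB3, CHAC1, ASNS and SESN2) both CBFB_KO libraries were below both WT libraries, as for 25.0% of all genes. The number called was 0 of 10 with edgeR (0 at an unadjusted p under 0.05) and 0 with DESeq2, while 0.19% of all genes were called. The nearly identical pair of CBFB_KO poly libraries enters this comparison, and with that pair summed as 1 sample the number was again 0.

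In the mono fraction the number called was also 0 of 10 with edgeR (0 at an unadjusted p under 0.05) and 0 with DESeq2, with 0.147% of all genes called. The log2 values ran from -0.91 ± 0.51 for PPP1R15B to 0.12 ± 0.55 for PPP1R15A. DDIT3 was at 32.5 and 48.2 CPM in CBFB_KO mono against 37.9 and 44.2 CPM in WT mono, and these overlapped. ATF4 was the 1 member with both CBFB_KO libraries below both WT libraries, as 12.9% of all tested genes were, at 1882 and 2179 CPM against 2654 and 2352 CPM (-0.30 ± 0.61). With SEs between 0.41 and 0.81 in log2, differences of the size seen here were not detectable in either fraction.

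In the free fraction, 8 of the 10 passed the test, 5 lower and 3 higher in CBFB_KO, where 18.1% of all tested genes were called lower and 24.2% higher. ATF4 fell from 5324 and 3175 CPM to 1590 and 274.8 CPM, 4.56-fold lower (log2 -2.19 ± 0.64, edgeR quasi-likelihood, adjusted p = 0.0202). Both CBFB_KO libraries were below both WT libraries, and they differed from each other more than the WT ones did. TRIB3 fell most, from 576.8 and 626.7 CPM to 145.1 and 31.8 CPM (-2.76 ± 0.66, adjusted p = 0.00881). DDIT3 fell from 23.8 and 11.5 CPM to 7.26 and 2.12 CPM (-1.88 ± 0.55, adjusted p = 0.0203), which rested on 171 and 21 counts in the CBFB_KO free libraries. PPP1R15A was at 55.6 and 23.8 CPM in CBFB_KO free (-1.54 ± 0.56, adjusted p = 0.0467). CHAC1, an enzyme that degrades glutathione, fell from 66.9 and 45.7 CPM to 26.4 and 7.58 CPM (-1.72 ± 0.53, adjusted p = 0.0244).

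ASNS rose in the free fraction, from 8.98 and 12.8 CPM to 26.8 and 61.9 CPM (log2 2.02 ± 0.49, adjusted p = 0.00893). PPP1R15B rose from 3.75 and 5.59 CPM to 10.6 and 14.4 CPM (1.41 ± 0.52, adjusted p = 0.0472). IFRD1, a transcriptional co-regulator, rose from 4.52 and 4.47 CPM to 8.15 and 12.7 CPM (1.21 ± 0.42, adjusted p = 0.0376), and the transcript length RSEM gave it was 1289 bases in WT free replicate 1 against 1836 to 2290 bases in the other libraries, so its isoforms were not estimated alike. For these 3 both CBFB_KO libraries lay above both WT libraries, as for 37.4% of all tested genes, and for the 5 that fell they lay below, as for 31.5%. ATF5 was at 230.1 and 67.5 CPM against 104.3 and 167.3 CPM (0.13 ± 0.57, adjusted p = 0.872) and SESN2, a stress-induced inhibitor of mTORC1, at 30.0 and 11.2 CPM against 21.6 and 116.8 CPM (-1.74 ± 0.83, adjusted p = 0.109), and both overlapped.

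**Figure D3:**
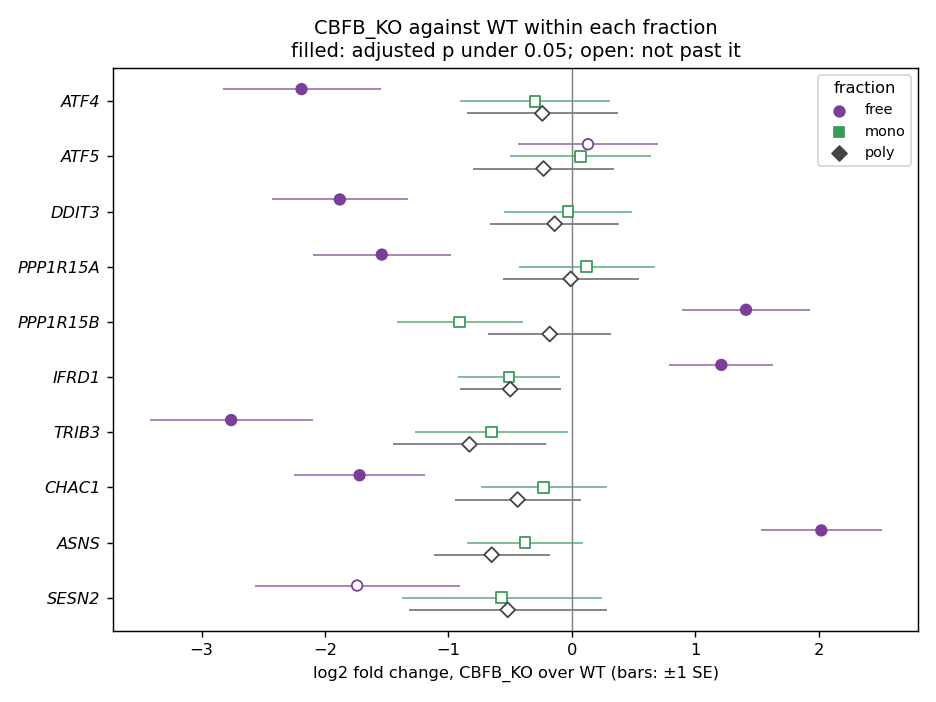
Log2 fold change of CBFB_KO over WT (x axis, bars ±1 SE) for each of the 10 mRNAs in the free (purple circles), mono (green squares) and poly (grey diamonds) fractions, filled where the adjusted p passed. The 8 filled points are all in the free fraction, where 5 mRNAs lie to the left of 0 and 3 to the right, while mono and poly points lie between -0.91 and 0.12.

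The number of free-fraction calls moved with single libraries, for the members and for all genes. Without CBFB_KO replicate 2, the library with the largest mitochondrial share, 0 of the 10 and 9.23% of all genes passed, with ATF4 at -1.41 (adjusted p = 0.0931), TRIB3 at -2.04 (adjusted p = 0.0704) and ASNS at 1.31 (adjusted p = 0.14). Without WT replicate 1, TRIB3 was the 1 member that passed, with 26.2% of all genes. Without CBFB_KO replicate 1 and without WT replicate 2, 6 passed each, with 32.7% and 42.6% of all genes. When the spread was estimated from the 4 free libraries alone, 0 of the 10 and 13.4% of all genes passed. Library size scaling, without TMM factors, put the median of all genes at -1.57 in log2. It left 6 of the 10 lower and 0 higher, where 39.7% of all genes were called lower and 7.87% higher. PPP1R15B was then at -0.36 and IFRD1 at -0.58 in place of their positive values, and ASNS at 0.11.

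The direction in the free fraction moved with base composition and length over all genes. Among the 15648 tested genes with a GC content, the median log2 change of CBFB_KO over WT was 1.56 below 45% GC, 0.0 from 45% to 55% and -1.05 above 55%. By transcript length it was -0.84 up to 1500 bases, -0.06 up to 3000 and 1.83 above. GC content was taken from the transcript of any type nearest in length to the one RSEM gave, which for ASNS is not the coding transcript of the leader (43.8% GC). The 3 members that rose had transcripts of 39.3% (ASNS), 41.8% (IFRD1) and 43.4% GC (PPP1R15B), and the 5 that fell had 50.6% (DDIT3), 53.2% (ATF4), 58.8% (PPP1R15A), 60.9% (TRIB3) and 62.6% (CHAC1). The 2 that did not pass were also rich in GC, SESN2 with 59.5% and a log2 change of -1.74 and ATF5 with 60% and 0.13, the latter away from the trend. With an offset for GC and length in the fit, added after seeing the data, ASNS was the only member called higher and 5 were called lower. In that fit 19.5% of all genes were called higher and 17.9% lower. IFRD1 was at 0.18 (adjusted p = 0.69) and PPP1R15B at -0.55 (adjusted p = 0.272). The part of the mitochondrial share in the free-fraction values was not tested.

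**Figure D4:**
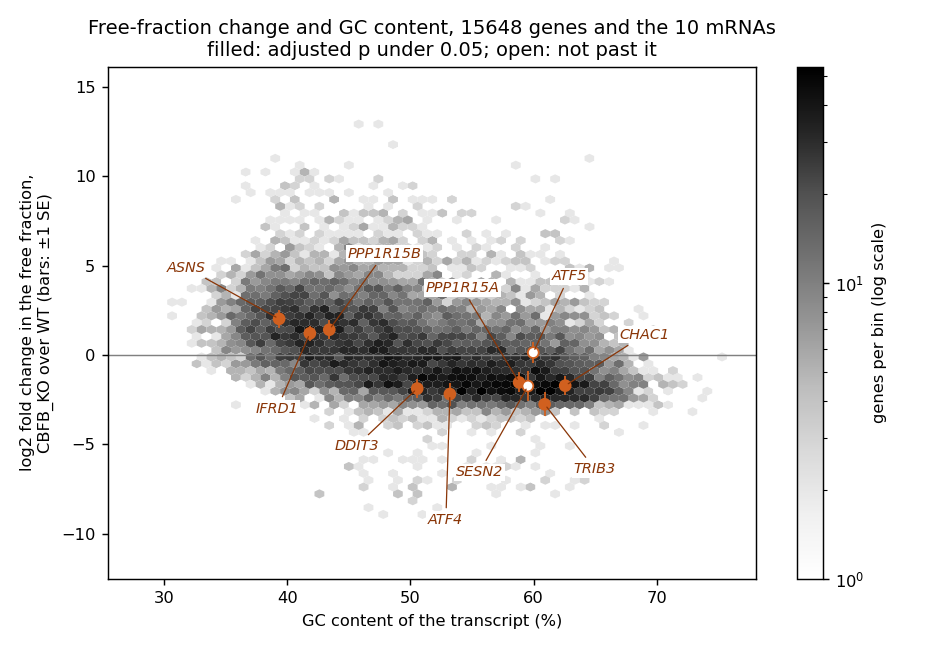
Log2 change of CBFB_KO over WT in the free fraction (y axis) against the GC content of the transcript in percent (x axis) for 15648 genes, shaded by genes per bin on a log scale, with the 10 mRNAs in orange (bars ±1 SE, filled where the adjusted p passed). The cloud slopes down from left to right and the 10 mRNAs lie within it, ASNS, IFRD1 and PPP1R15B at the low GC end and TRIB3 and CHAC1 at the high end.

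The last comparison was of the ratios between fractions in the 2 genotypes. The study judged genome-wide translation by the poly to free ratio, beside in vitro translation, immunoblots and PCR of fractions. It used the poly to mono ratio to judge elongation of RUNX1. Ratios of single libraries were formed between those of the same genotype and replicate number, although nothing in the labels says that these share a gradient. The poly to mono ratio of ATF4 was 0.21 and 0.22 in WT and 0.24 and 0.21 in CBFB_KO, and that of DDIT3 0.27 and 0.24 in WT and 0.29 and 0.19 in CBFB_KO. In CBFB_KO the poly level was lower than mono for ATF4 (log2 -2.15 ± 0.64, adjusted p = 0.0402) and DDIT3 (-2.10 ± 0.55, adjusted p = 0.024), 2 of the 10 against 8.66% of all genes called lower and 8.2% higher. By transcript length, the median log2 of all genes in this comparison was -1.02 up to 1500 bases, 0.12 up to 3000 and 0.83 above. ASNS was again higher in poly, at 22.7 and 24.04 CPM against 7.82 and 11 CPM in CBFB_KO mono (1.31 ± 0.48, adjusted p = 0.0799), and did not pass. Both calls were lost without either CBFB_KO replicate and with the nearly identical poly libraries summed, fits in which only 0.00573% (without replicate 1), 0.00569% (without replicate 2) and 0.0% (summed) of all genes were called. With the pair summed, ATF4 was -2.09 (adjusted p = 0.236) and DDIT3 -2.05 (adjusted p = 0.192). Scaled by library size alone, they were -1.20 (adjusted p = 0.318) and -1.13 (adjusted p = 0.308). Without CBFB_KO replicate 1 ATF4 was -2.25 (adjusted p = 0.127) and DDIT3 -2.38 (adjusted p = 0.141). Without replicate 2 they were -2.02 (adjusted p = 0.211) and -1.75 (adjusted p = 0.282). ATF4 also did not pass without WT replicate 1 (-2.14, adjusted p = 0.0773) or WT replicate 2 (-1.91, adjusted p = 0.1). The test of the difference in the poly to mono ratio between genotypes gave 0.06 ± 0.86 for ATF4, -0.12 ± 0.74 for DDIT3 and values from -0.30 to 0.72 for all 10, with 0 called by edgeR (0 at an unadjusted p under 0.05) and 0 by DESeq2, and 0.0% of all genes called.

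The poly to free ratio used the CBFB_KO free libraries and spread far more. For ATF4 it was 0.11 and 0.16 in WT and 0.29 and 1.66 in CBFB_KO. The difference in log2 was 1.95 ± 0.87 (adjusted p = 0.126). For TRIB3 the ratio was 0.54 and 0.35 in WT and 1.02 and 4.71 in CBFB_KO (difference 1.94 ± 0.89, adjusted p = 0.133), and for DDIT3 it was 0.43 and 0.91 against 1.31 and 4.33 (1.74 ± 0.75, adjusted p = 0.117). These 3 did not pass with edgeR, whereas DESeq2 called ATF4 (2.03, adjusted p = 0.0403) and TRIB3 (1.99, adjusted p = 0.0379). DESeq2 called 13.5% of all genes higher and 20.9% lower in this comparison. Without CBFB_KO replicate 1 the differences were 3.71 for ATF4, 3.42 for TRIB3 and 2.89 for DDIT3, with a median of 0.19 over all genes. The CBFB_KO free library that remained in that fit had 87.2% mitochondrially encoded counts. Of the 10 mRNAs, 6 had a difference above 0 and 4 below, and the median was 1.25 against -0.1 for all tested genes.

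ASNS was the 1 member whose poly to free ratio differed between genotypes past the threshold, where 14.3% of all tested genes were called lower and 4.1% higher. Its ratio was 3.34 and 3.40 in WT and 0.85 and 0.39 in CBFB_KO, a difference of -2.67 ± 0.67 in log2 (adjusted p = 0.0208). Its level changed in the free fraction and did not pass in the poly fraction, at 30.0 and 43.6 CPM in WT and 22.7 and 24.04 CPM in CBFB_KO (log2 -0.65 ± 0.47). Without CBFB_KO replicate 2 the difference was -2.00 (adjusted p = 0.239), and without WT replicate 1 or 2 it was -2.69 (adjusted p = 0.0747) and -2.56 (adjusted p = 0.0743). Scaled by library size alone, it was -0.77 (adjusted p = 0.413). IFRD1 had ratios of 0.49 and 0.60 in WT and 0.21 and 0.14 in CBFB_KO (-1.71 ± 0.59, adjusted p = 0.0625).

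The mono to free ratio gave ASNS again (-2.40 ± 0.67, adjusted p = 0.0316) and PPP1R15B (-2.32 ± 0.73, adjusted p = 0.0464), 2 of the 10 against 14.2% of all genes called lower and 4.87% higher. The ASNS ratio was 1.03 and 1.19 in WT and 0.29 and 0.18 in CBFB_KO, and that of PPP1R15B 1.86 and 3.85 in WT and 0.57 and 0.64 in CBFB_KO. Neither passed without CBFB_KO replicate 2 (ASNS -1.96, adjusted p = 0.252; PPP1R15B -2.42, adjusted p = 0.263), and with the GC and length offset PPP1R15B was at -0.16 (adjusted p = 0.863). Without TMM factors ASNS was at -0.57 (adjusted p = 0.556) and PPP1R15B at -0.61 (adjusted p = 0.58). Leaving out WT replicate 1 gave -2.48 (adjusted p = 0.0881) for ASNS, WT replicate 2 gave -2.27 (adjusted p = 0.0963) for ASNS and -1.59 (adjusted p = 0.0997) for PPP1R15B, and CBFB_KO replicate 1 gave -2.25 (adjusted p = 0.159) for PPP1R15B. Within CBFB_KO cells DDIT3 rose from free to mono, from 7.26 and 2.12 CPM to 32.5 and 48.2 CPM (3.07 ± 0.57, adjusted p = 0.00143), ASNS fell from 26.8 and 61.9 CPM to 7.82 and 11 CPM (-2.23 ± 0.49, adjusted p = 0.00381) and IFRD1 fell from 8.15 and 12.7 CPM to 3.34 and 3.94 CPM (-1.52 ± 0.42, adjusted p = 0.0136). These are 3 of 10, where 20.3% of all genes were called higher and 23.0% lower. Without CBFB_KO replicate 2 the 3 calls ended, in a fit that also called fewer of all genes. There DDIT3 was at 2.16, ASNS at -1.77 and IFRD1 at -1.29. Without CBFB_KO replicate 1, IFRD1 was at -1.67 and was not called. The IFRD1 call also ended with the GC and length offset (-0.38, adjusted p = 0.386). By transcript length, the median log2 of CBFB_KO mono against free over all genes was 1.43 up to 1500 bases, -0.04 up to 3000 and -1.92 above. Without TMM factors IFRD1 was at -0.13 (adjusted p = 0.83) and ASNS at -0.76 (adjusted p = 0.223). From free to poly, ATF5 (-1.72 ± 0.58, adjusted p = 0.0433) and IFRD1 (-2.58 ± 0.44, adjusted p = 0.00156) fell in CBFB_KO, against 16.7% of all genes called lower and 14.6% higher. Without CBFB_KO replicate 2 these were -2.35 (adjusted p = 0.1) and -2.24 (adjusted p = 0.137), and ATF5 was -0.54 (adjusted p = 0.656) without CBFB_KO replicate 1, -1.71 (adjusted p = 0.0583) without WT replicate 1 and -1.53 (adjusted p = 0.0789) without WT replicate 2. Without TMM factors ATF5 was at 0.26 (adjusted p = 0.802) and IFRD1 at -0.25 (adjusted p = 0.67).

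**Figure D5:**
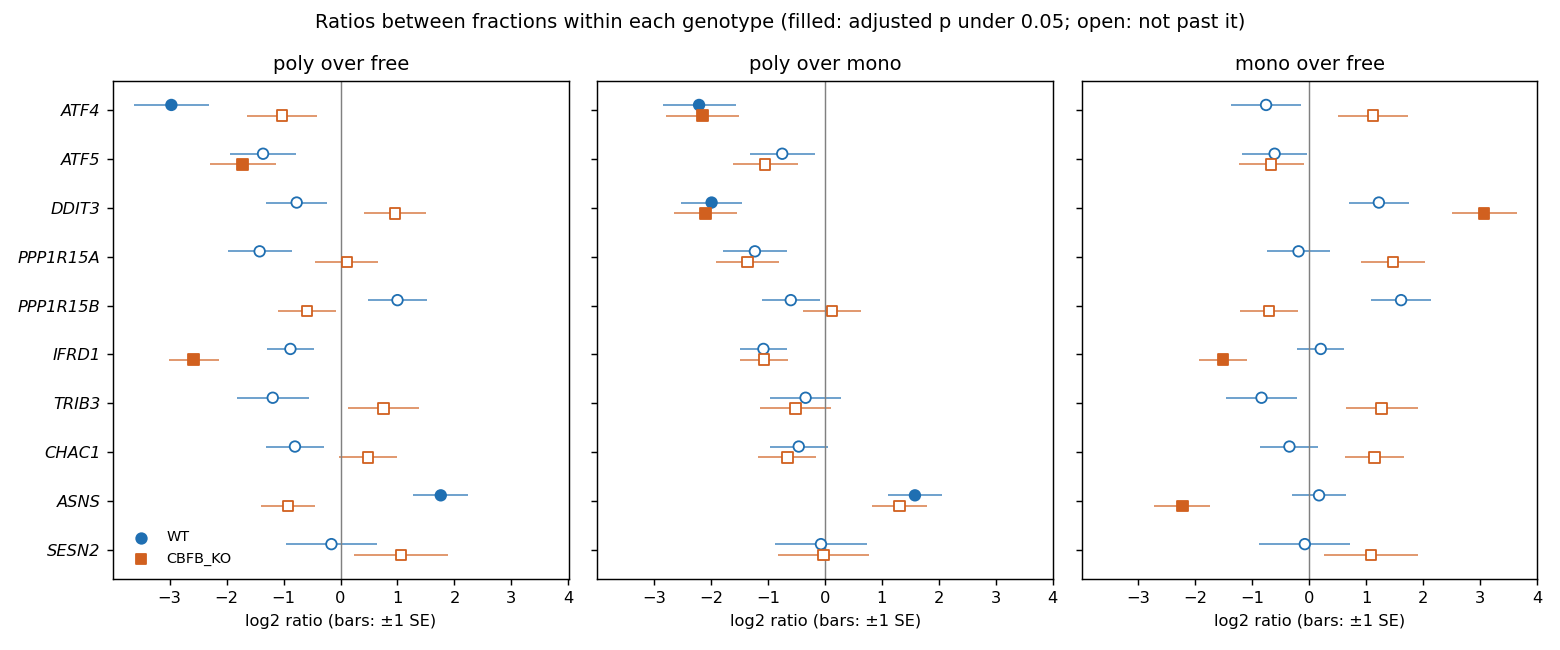
Log2 ratios between fractions (x axes, bars ±1 SE) of the 10 mRNAs in WT (blue circles) and CBFB_KO (orange squares), filled where the adjusted p passed, for poly over free, poly over mono and mono over free. The poly over mono values of the genotypes differ by at most 0.72 (PPP1R15B), while the ratios to free separate further, as for ASNS at 1.76 in WT and -0.92 in CBFB_KO for poly over free.

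The kinases that act upstream and other genes of the pathway were read from lists chosen beside the members. Of the eIF2 kinases, EIF2AK1, which senses heme, had the largest difference in the free fraction, at 581.0 and 486.6 CPM in CBFB_KO against 29.9 and 46.1 CPM in WT (log2 3.81 ± 0.47, adjusted p = 2.5e-04). In the poly fraction it was at 42.4 and 39.5 CPM against 40.3 and 41.7 CPM. EIF2AK4 (2.89 ± 0.51), which senses amino acid lack, EIF2AK2 (2.24 ± 0.42), which binds double-stranded RNA, and EIF2S1 (2.30 ± 0.43), the eIF2 subunit they phosphorylate, rose in the free fraction too, while EIF2AK3, the kinase of the endoplasmic reticulum, was at 1.88 ± 1.35 (adjusted p = 0.277). With the GC and length offset EIF2AK2 was at 0.09 (adjusted p = 0.849) and was not called, while EIF2AK1 (2.45), EIF2AK4 (1.82) and EIF2S1 (2.06) were. These rises hold on the TMM scale. In TPM, which uses no TMM factors, the free libraries of the genotypes overlapped for EIF2AK1, EIF2AK4 and EIF2S1. EIF2AK2 was lower in CBFB_KO free, at 0.45 and 0.28 TPM against 0.83 and 0.89 TPM in WT free. Of the 21 genes for eIF2 signalling and reinitiation, 9 were called higher and 3 lower in CBFB_KO free, where 24.2% of all tested genes were called higher and 18.1% lower, 0 in either direction in CBFB_KO mono, and 5 had a lower and 0 a higher poly to free ratio, against 14.3% and 4.1% of all genes. The largest of the latter were EIF2AK1 (-3.82 ± 0.62, adjusted p = 0.0024), EIF2AK4 (-3.12 ± 0.69, adjusted p = 0.0117) and IMPACT (-2.61 ± 0.71, adjusted p = 0.0281), an inhibitor of EIF2AK4 activation, which was -1.59 (adjusted p = 0.0556) with the GC and length offset. In the free fraction 1 of the 21 was higher and 8 were lower without TMM factors, where 7.87% and 39.7% of all genes were. With the GC and length offset 5 were higher and 6 lower, against 19.5% and 17.9% of all genes. Fewer of the list were called without CBFB_KO replicate 2, as over all genes. The balance of directions in the list was thus not kept, and that of all genes moved too.

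Of 26 further ATF4 and stress response targets, 10 were called higher and 10 lower in CBFB_KO free, where 24.2% and 18.1% of all tested genes were. The largest changes were ALDH1L2, a mitochondrial folate enzyme (8.43 ± 0.9), SLC7A11, the cystine transporter (7.21 ± 1.29), and VLDLR, a lipoprotein receptor (4.49 ± 1.66), with adjusted p of 1.1e-04, 0.00209 and 0.0476. SLC7A11 and VLDLR were listed at 0 in WT free replicate 1, so their fitted values depend on the prior count. ALDH1L2 (-10.02 ± 1.09), SLC7A11 (-8.25 ± 1.59) and SLC38A2, an amino acid transporter (-4.51 ± 0.77), also led the 8 targets with a lower poly to free ratio, and 0 had a higher one, against 14.3% and 4.1% of all genes. Of 16 genes of the IRE1 and ATF6 arms of the unfolded protein response, 8 were higher and 3 lower in CBFB_KO free, led by the chaperones HYOU1 (4.46 ± 0.53) and HSP90B1 (4.33 ± 0.78) and the sensor kinase ERN1 (3.87 ± 1.32), which was also at 0 in WT free replicate 1. The poly to free ratio was lower for 7 of them and higher for 2, with HSP90B1 (-5.39 ± 1.03), HYOU1 (-5.26 ± 0.69) and SEL1L, a part of the ER degradation machinery (-4.00 ± 1.12), furthest from 0. Of 12 other mRNAs with known uORFs, 4 were higher and 2 lower in CBFB_KO free, led by EPRS1, the glutamyl-prolyl-tRNA synthetase (3.79 ± 0.67), IBTK (3.76 ± 0.74) and CEBPB, a transcription factor (-3.19 ± 0.57), and the poly to free ratio was lower for 2, EPRS1 (-4.81 ± 0.89) and IBTK (-4.01 ± 0.97). In the CBFB_KO poly against WT poly comparison and in mono, 0 genes of the 4 lists were called. Without CBFB_KO replicate 2, fewer genes of these 3 lists were called in the free fraction, as over all genes. Without TMM factors the free-fraction counts of the 3 lists were 5 higher and 15 lower, 2 and 8, and 2 and 6. In that fit 7.87% of all genes were called higher and 39.7% lower. With the GC and length offset the counts were 8 and 8, 6 and 3, and 3 and 3, against 19.5% and 17.9% of all genes. That offset ended the free-fraction calls of VLDLR (3.67, adjusted p = 0.0817) and IBTK (1.43, adjusted p = 0.097) and the ratio calls of SEL1L (-0.94, adjusted p = 0.394) and IBTK (-1.66, adjusted p = 0.194).

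Across the 12 libraries and 7898 genes with a mean of at least 5 CPM, the genes whose log2 level was most like that of ATF4 by Pearson's r were SEPTIN7P14 (0.986), a pseudogene whose reads can be shared with its parent gene, IFNGR2 (0.98) and LRRC28 (0.979). Those most like DDIT3 were TMEM18 (0.991), APTX (0.989) and BRI3 (0.989). Among the members, ATF4 ran nearest to PPP1R15A (0.83) and CHAC1 (0.821) and opposite to ASNS (-0.856). The 12 points share fractions, depth and the composition of the CBFB_KO free libraries, so these values describe the libraries only. ATF4, ATF5 and DDIT3 had expected counts more than 0.005 from a whole number in 11, 10 and 8 of 12 libraries, so part of their reads was divided between them and other genes, while the other 7 had whole counts in 12 of 12. Exons of other genes overlap those of ATF5, DDIT3, IFRD1 and ASNS in GENCODE release 29, on the opposite strand for ATF5 (IL4I1, NUP62) and DDIT3 (MARS, MBD6), and the strand setting of the counting is not given in the sources used here, so reads from those partners cannot be told apart.

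Over all genes, those with an upstream ATG had a lower median poly to free ratio than those without. The median log2 poly to free ratio in WT was 0.07 for the 6372 genes with 1 or more upstream ATGs and 0.48 for the 6546 with none. This is a description across genes, which are not independent replicates, and the transcripts with an upstream ATG were longer, with a median of 2191 against 1889 bases. Against these medians ATF4 (-2.97) lay below the genes with an upstream ATG and ASNS (1.76) above those without. PPP1R15B, with 2 uORFs, was at 1.0, above both. The median of all tested genes was 0.08. By transcript length, the median ratio was -0.29 up to 1500 bases, 0.01 up to 3000 and 0.93 above. The part of uORFs or of length in the members' values was not tested on its own.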

How the data were processed

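The 12 libraries hold RNA of 3 ribosomal fractions from both genotypes, 2 per group. Per the labels the libraries were made with a poly-A mRNA kit. The authors ran Trimmomatic, STAR and RSEM with hg19, according to the submitters' processing notes, and versions and annotation are not given in the sources used here. Expected counts, as deposited, are reads that RSEM assigned to each gene, without any scaling. TPM was computed by the authors from these by effective length, to a fixed sum per library. It served only to compare genes and markers and to give the eIF2 kinases and EIF2S1 without TMM factors. The deposited gene length was used to choose transcripts.

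After rounding, the counts entered edgeR 4.0.16 in R 4.3.3 with limma 3.58.1, using TMM factors, filterByExpr, a mean per group over all 12 libraries and glmQLFTest. Calls used a Benjamini-Hochberg adjusted p under 0.05 over 16275 genes. The SE is the size of the log2 change over the square root of F. CPM values are divided by TMM-scaled library sizes. Changes of the ratio were tested as interactions. The code was tested on simulated data. Alternatives were DESeq2 1.42.0, no TMM factors, no low-count filter, no mitochondrially encoded genes, replicate blocks over all groups and within genotype, the CBFB_KO poly libraries summed, fewer libraries, and, added after seeing the data, an offset for GC content and length (lowess span 0.3). For likeness 0.5 was added to CPM before the log2. A share that 3 counts can show was 4.7e-06 to 7.31e-06 percent of a library, which covers counting error only.

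Leaders came from GENCODE release 29 (GRCh38), matched by Ensembl identifier, and 96.1% of tested genes had a GC content. Coordinates are GRCh38, not those of the files' build. Symbols came from a table of gene identifiers. PECAM1 was not matched. The genes named are all members, CBFB, the eIF2 kinases and EIF2S1, and per list the up to 3 called genes with the largest change in the free fraction and in the poly to free ratio. The members and lists were chosen with earlier results of these data known. Python 3.11.15, pandas 2.3.3, numpy 2.4.6 and matplotlib 3.10.9 were used.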

Additional observations from a re-analysis of the deposited data

Results flagged for a closer look

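In 3 cases a member's ratio between fractions differed between CBFB_KO and WT by a test of the difference itself. The poly to free ratio of ASNS was lower in CBFB_KO by -2.67 ± 0.67 in log2 (edgeR quasi-likelihood, adjusted p = 0.0208), with ratios of same-numbered libraries of 3.34 and 3.40 in WT and 0.85 and 0.39 in CBFB_KO. The mono to free ratio of ASNS differed by -2.40 ± 0.67 (adjusted p = 0.0316), and that of PPP1R15B by -2.32 ± 0.73 (adjusted p = 0.0464). All 3 contain the CBFB_KO free libraries, where 71.6% and 87.2% of the counts came from the mitochondrial genome, and the part of this in the differences was not tested. The poly to mono ratios, which do not contain those libraries, differed by -0.27 ± 0.66 for ASNS and 0.72 ± 0.72 for PPP1R15B, and neither passed (adjusted p = 1.0).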

How the results depend on the processing

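Of 291 values that the alternatives gave for the 23 called results of single members, 194 kept direction and call, 93 kept the direction only and 4 reversed: without TMM factors ATF5 poly against free in CBFB_KO (0.26), and PPP1R15B (-0.36) and IFRD1 (-0.58) in CBFB_KO against WT free, and with the GC and length offset PPP1R15B there (-0.55). Members called in CBFB_KO against WT mono, CBFB_KO against WT poly and the difference in poly to mono ratio stayed at 0 under every alternative run. In the order higher and lower, the counts that moved were as follows, each with the share of all genes called in the same fit. Without TMM factors, WT poly against free had 1 and 0 (17.5% of all genes), WT poly against mono 1 and 0 (18.7%), CBFB_KO poly against free 7 and 0 (50.6%), CBFB_KO poly against mono 1 and 0 (16.5%), CBFB_KO mono against free 5 and 0 (43.2%), the difference in poly to free ratio 2 and 0 (22.4%), and in mono to free ratio 1 and 0 (24.8%). This scaling put the median of all genes at 2.05 in CBFB_KO poly against free. With DESeq2, WT poly against free had 4 calls (31.2%), CBFB_KO mono against free 5 (52.2%), the difference in poly to free ratio 4 (34.4%) and in mono to free ratio 8 (37.4%). With no low-count filter, WT mono against free had 1 (6.53%), CBFB_KO mono against free 5 (31.7%), the poly to free difference 3 (18.7%) and the mono to free difference 4 (19.5%). With the GC and length offset, WT poly against free had 6 (30.7%), WT poly against mono 6 (24.9%), WT mono against free 1 (11.6%), CBFB_KO poly against mono 6 (21.2%), CBFB_KO mono against free 6 (41.1%), the poly to free difference 2 (20.5%) and the mono to free difference 1 (20.5%). With the CBFB_KO poly libraries summed, WT poly against mono had 1 (12.3%), CBFB_KO poly against free 1 (11.4%), CBFB_KO poly against mono 0 (0.0%), CBFB_KO against WT free 5 (29.2%), and the poly to free and mono to free differences 0 (4.43% and 9.49%). With the libraries of the contrast only, CBFB_KO poly against free had 1 (41%), CBFB_KO poly against mono 5 (51.8%), CBFB_KO against WT free 0 (13.4%) and the mono to free difference 0 (7.13%). The cause of these changes was not tested.

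Leaving out the libraries of 1 genotype and replicate number in turn changed the number of members called in most comparisons. These were WT poly against free and mono, the comparisons between fractions in CBFB_KO, and CBFB_KO against WT free. The poly to free and mono to free differences changed as well. In each of them the share of all genes called moved too, so the member counts cannot be read on their own. Where this left an arm with 1 library, it was assumed to vary like the other groups.

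The labels number replicates 1 and 2 in every group, but deviations of same-numbered samples correlated between -0.393 and 0.507 over 15 pairs of groups, so the tests treat samples as unpaired, and the numbers served only to form ratios of single libraries and to leave libraries out together. With the replicate block, CBFB_KO mono against free had 5 calls (45.4%), the poly to free difference 2 (22.2%), the mono to free difference 4 (25.1%), CBFB_KO poly against mono 3 (18.9%) and CBFB_KO against WT free 8 (45.1%). With the replicate block within genotype, CBFB_KO poly against free had 1 (30.8%).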
